A study of Homo sapiens with 24 samples.

Results

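Mitochondrial ribosomal proteins were read across control and oxidatively stressed human fibroblasts, in whole-cell RNA and along a polysome gradient. The members were all catalog probes whose gene name began with MRPL or MRPS followed by a number. This rule took 47 probes of 39 gene names, out of 17535 catalog probes of 15102 names. Of the 39 names, 38 were protein-coding genes (46 probes) and 1, MRPL23-AS1, was an antisense RNA. The members covered 24 proteins of the large subunit (31 probes) and 13 of the small subunit (13 probes), with MRPS30 counted in the large subunit where its product sits. MRPS36, read by 2 probes, keeps a ribosomal name but its product is now assigned to the oxoglutarate dehydrogenase complex.

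The mitochondrial ribosome, or mitoribosome, translates the few messages that the mitochondrial genome encodes, all of them for subunits of the respiratory chain and ATP synthase. Its own proteins are encoded in the nucleus, translated by cytosolic ribosomes and imported into the organelle. Many have a counterpart in the bacterial ribosome, whereas others are found only in mitochondria. The cytosolic ribosome load on MRPL and MRPS messages therefore concerns these nuclear transcripts, not translation inside mitochondria.

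The cells were MRC5, a line of lung fibroblasts. Oxidative stress (OS) groups had received 0.2 mM H2O2 for 2 h and control groups had not. All cells used for gradients were given cycloheximide, which holds ribosomes on the message. From 23 gradient fractions, 3 pools were made: fractions 1 to 9 (untranslated, free RNA-protein particles and single ribosomes), 10 to 14 (low, 2 to 4 ribosomes) and 15 to 23 (high, 5 or more ribosomes). The pools thus sort messages by their number of ribosomes. The coding length of the members was not examined, so their place in the gradient does not measure how efficiently they are translated. Control and OS cells, each as total RNA and as these pools, gave 8 groups of 3 arrays, 24 in all. Values are normalized log2 intensities of a 1-colour array. The same mass of RNA was labelled from each pool, so a difference between pools is relative to the other mRNAs in it and does not count molecules. Likewise, in whole-cell RNA, fewer cells and less RNA per cell cannot be told apart.

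The third array of the OS low pool stood apart from the rest. On it, 95.4% of mRNA probes were well above background, against 43.4% to 67.7% on the other arrays. Its 2 pairwise SDs with the replicates of its group were 1.70, compared with at most 1.00 elsewhere. All groups share 1 estimate of the spread, so counts of called members are given with all arrays and then without this one. Between 39 and 44 of the 47 members were well above background on any array. The fibroblast markers on the array, COL1A1, COL3A1 and THY1, were well above background on all 6 total RNA arrays. So were 2 of 3 epithelial probes (KRT8 and KRT18), 1 of 2 endothelial probes (CDH5) and 1 of 3 probes of the leukocyte gene PTPRC, and the part of other cell types in the results was not tested. The arrays lay on 3 slides, each holding every group once.

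Promoter letters were searched in the RefSeq windows (GRCh38.p14, around each gene start) of the 37 member genes that could be matched. The letters were CCGGAAG for ETS factors, AAGATGGCG for YY1 and GCGCATGCG for NRF1, on either strand, all regulators known for genes of mitochondrial function. CCGGAAG was present in 15 of the 37 windows (40.5%), against 2913 of all 27305 windows. AAGATGGCG was present in 7 (18.9%, against 1.85%) and GCGCATGCG in 2 (5.41%, against 2.1%). At least 1 of these was in 21 of the 37 (56.8%, against 13.6%). The 27305 windows were 1 for each gene symbol and were not matched to the members in gene type or base composition. Whether these shares are particular to the members was therefore not tested. The windows below belong to members whose pool values follow, with the matched letters in capitals. They are read on the strand of the gene, and an ETS match on the other strand reads CTTCCGG.
MRPL42 (YY1, chr12:93467512-93467541, plus strand): ggattgaaacAAGATGGCGggttcgtggtg
MRPS18B (YY1, chr6:30617853-30617882, plus strand): ggcgtacgtcAAGATGGCGgcgtctgtatt
MRPS30 (YY1, chr5:44808950-44808979, plus strand): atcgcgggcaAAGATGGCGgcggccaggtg
MRPL32 (YY1, chr7:42932143-42932172, plus strand): acccgcgctcCGCCATCTTtacccgaagag
MRPL3 (ETS, chr3:131502985-131503014, minus strand): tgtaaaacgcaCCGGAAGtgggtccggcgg
MRPL47 (ETS, chr3:179604659-179604688, minus strand): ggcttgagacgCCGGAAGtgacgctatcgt
MRPS16 (ETS, chr10:73252621-73252650, minus strand): cggatcatccgCTTCCGGagtcgaggtttt
MRPS33 (ETS, chr7:141014934-141014963, minus strand): agagggcgggcCTTCCGGgacgagggcgcg
In MRPL32 the match is on the opposite strand, so the YY1 letters read CGCCATCTT. The matches of MRPL42, MRPS18B and MRPS30 began at bases 9, 24 and 14 of the transcript. The YY1 letters include the triplet of a start codon, and whether a match holds the translation start of its gene was not checked. A match is a description of letters and not of binding.

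Where the messages lay in control cells was the first question. MRPL and MRPS messages were spread widely over the gradient, and more were depleted than enriched in the high pool. Between the high and untranslated pools 41 member probes could be tested, of which 13 were higher and 20 lower in the high pool. The background was 42.2% of 9880 mRNA probes higher and 31.0% lower. With the third OS low array left out, 15 members were higher and 20 lower, against 47.4% and 34.7%. The median member difference was -0.32 and that of all tested mRNA probes 0.35 on the log2 scale. Within the 3 slides the member median was -0.46, -0.25 and -0.28. This split depends on how the arrays were scaled. In the deposited table, normalized over all probes together, 19 members were higher and 15 lower, and the share of mRNA probes called was not worked out. There the member median was 0.19 and the mRNA median 1.05, a member minus mRNA difference of -0.86, compared with -0.67 with all arrays quantile normalized by probe category.

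Between the high and low pools, most members were lower in the high pool. Of 43 tested member probes, 6 were higher and 27 lower in the high pool, against a background of 25.0% higher and 25.5% lower among 10463 mRNA probes. When the third OS low array was left out, 8 were higher and 27 lower, against 32.2% and 30.9%. The median member difference was -0.86, compared with 0.03 for all tested mRNA probes. By subunit, 18 of 30 large-subunit and 7 of 11 small-subunit probes were lower, with medians of -0.84 and -0.81. By origin, 14 of 21 probes for proteins with a bacterial counterpart and 11 of 20 for mitochondria-specific proteins were lower, with medians of -0.81 and -0.91. Each of the 33 called members had the same sign on all 3 slides, and so did the 33 called against the untranslated pool. The slides hold the arrays that gave these calls, so this is not a separate check of them. The lower level in the high than in the low pool was not particular to the members. Of nuclear-encoded respiratory chain subunits, 29 of 46 probes were lower and 10 higher, with a median of -1.23. Of cytosolic ribosomal proteins, 49 of 77 were lower and 6 higher, with a median of -0.79.

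**Figure D1:**
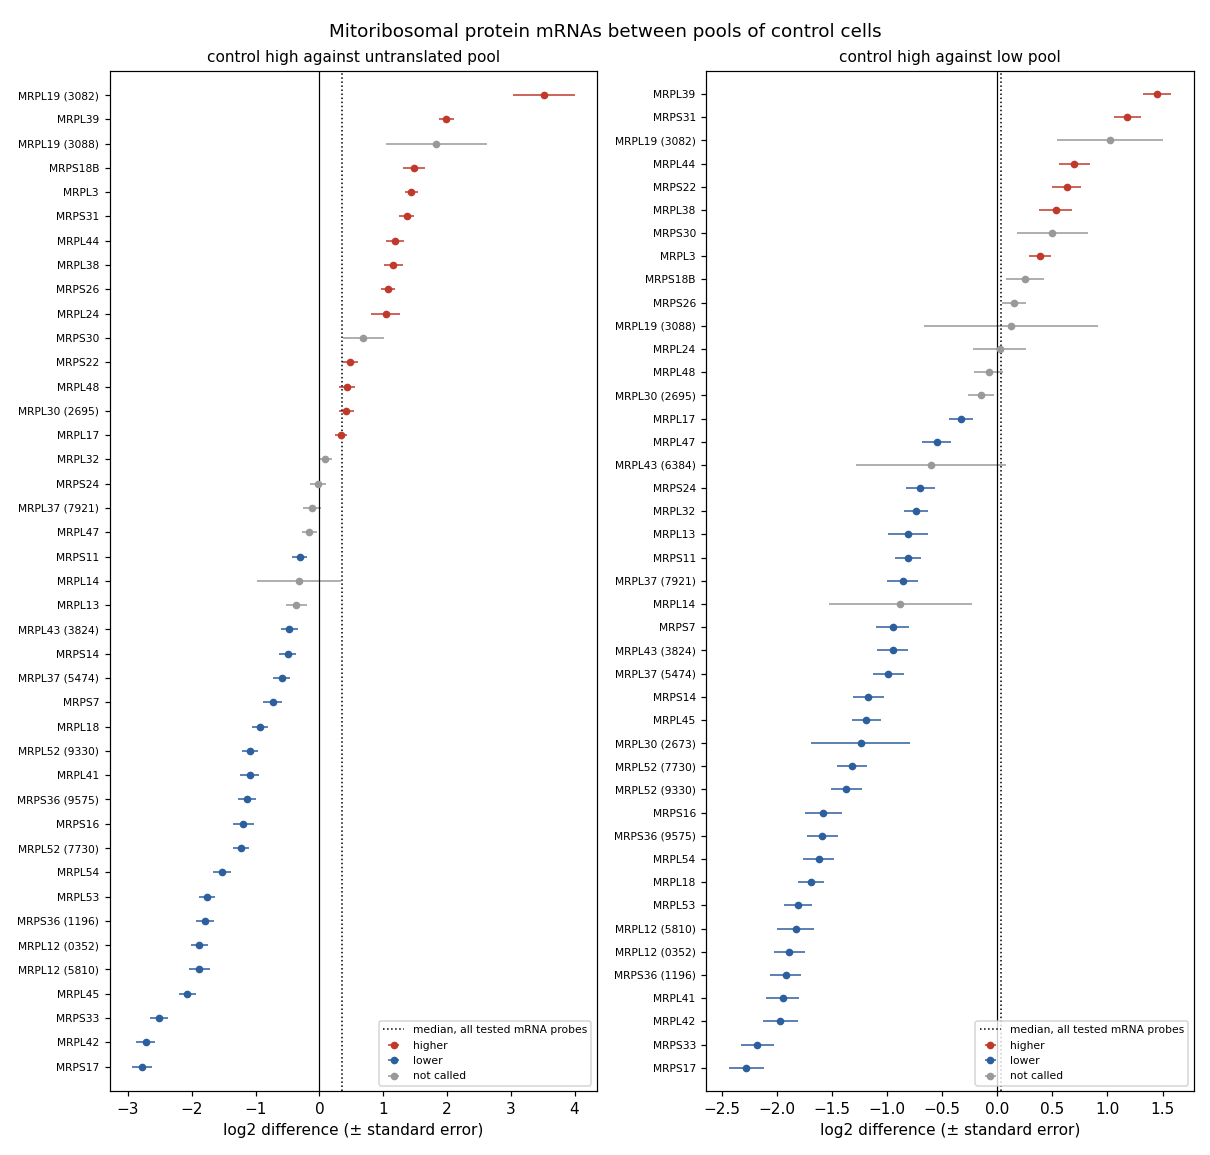
Log2 difference (high minus untranslated pool, left, and high minus low pool, right) in control cells for each tested member probe, with its limma standard error. Red points were higher, blue points lower and grey points not called, and the dotted line is the median of all tested mRNA probes. MRPS17, MRPL42 and MRPS33 lie lowest in the left panel. MRPL39 lies near the top, below a MRPL19 probe whose untranslated level was above background on 1 of 3 arrays. Digits in brackets are the end of the probe name where a gene has several.

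MRPS17, a small-subunit protein with a bacterial counterpart, had the most negative difference. Its probe lies at chr7:56022855-56022914 (GRCh37, plus strand). Levels were 13.93, 13.66 and 13.54 in the 3 control untranslated arrays, 13.07, 13.18 and 13.38 in the low arrays and 10.69, 10.96 and 11.13 in the high arrays. The high arrays thus lay below every array of both other pools. The high minus untranslated difference was -2.78 ± 0.16 (standard error; limma, adjusted p = 1.86e-11), a 6.88-fold lower level, and the high minus low difference was -2.28 ± 0.16 (limma, adjusted p = 9.64e-10).

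MRPL42, a mitochondria-specific protein of the large subunit, and MRPS33, one of the small subunit, had similar profiles. For MRPL42 (probe at chr12:93895832-93895891, plus strand) the untranslated arrays read 12.40, 12.26 and 11.93 and the high arrays 9.31, 9.49 and 9.61. The difference was -2.72 ± 0.15 (limma, adjusted p = 1.87e-11). For MRPS33 the untranslated arrays read 13.41, 13.27 and 13.35 and the high arrays 10.82, 10.67 and 11.02, a difference of -2.51 ± 0.14 (limma, adjusted p = 1.95e-11). In neither gene did the pools overlap. Against the low pool the differences were -1.97 ± 0.16 for MRPL42 and -2.18 ± 0.15 for MRPS33 (limma, adjusted p = 5.1e-09 and 5e-10).

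At the other end stood MRPL39, a mitochondria-specific protein of the large subunit. Its levels were 10.62, 10.31 and 10.43 in the untranslated arrays, 10.86, 11.08 and 11.02 in the low arrays and 12.49, 12.40 and 12.43 in the high arrays. All high arrays lay above all others. The high minus untranslated difference was 1.99 ± 0.12 and the high minus low difference 1.45 ± 0.13 (limma, adjusted p = 8.05e-11 and 2.14e-08). MRPS31, a small-subunit protein, was 1.18 ± 0.12 higher in the high than in the low pool, and MRPL44, related to ribonuclease III, was 0.70 ± 0.14 higher (limma, adjusted p = 1.77e-07 and 4.37e-04).

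MRPL19, a large-subunit protein with a bacterial counterpart, was read against a dim group, since only 1 of its 3 control untranslated arrays was well above background, and the size of its difference is uncertain to that extent. Its first probe (chr2:75889260-75889319) read 6.17, 6.04 and 6.53 in the untranslated arrays and 9.72, 9.76 and 9.84 in the high arrays, a difference of 3.52 ± 0.48 (limma, adjusted p = 3.45e-06). Its second probe, 8491 bases further along, read 7.53, 5.12 and 5.63 against 7.76, 8.04 and 7.97, a difference of 1.83 ± 0.79 (limma, adjusted p = 0.0502). That probe was called higher without the third OS low array (limma, adjusted p = 0.00177). MRPS18B, one of the paralogs named after bacterial S18, rose by 1.48 ± 0.17 from the untranslated to the high pool (limma, adjusted p = 3.39e-07).

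Other members with a defined place in the ribosome also differed between control pools. MRPL3, which lies near the peptidyl transferase region, was 1.44 ± 0.10 higher in the high than in the untranslated pool (limma, adjusted p = 2.82e-10). MRPL12, the stalk protein, was lower with both probes, which share 48 bases, at -1.88 ± 0.14 and -1.88 ± 0.17 (limma, adjusted p = 9.55e-10 and 1.31e-08). At the exit of the polypeptide tunnel, MRPL24 was higher, at 1.04 ± 0.23, and MRPL45 lower, at -2.07 ± 0.13 (limma, adjusted p = 7.66e-04 and 7.92e-11). The MRPL45 probe is also assigned to a non-coding RefSeq transcript and its value is uncertain to that extent. MRPS22, mitochondria-specific, was 0.48 ± 0.13 higher (limma, adjusted p = 0.00338). MRPS30 was 0.69 ± 0.32 apart (limma, adjusted p = 0.0695), and was called higher without the third OS low array (limma, adjusted p = 4.68e-05). Both MRPS36 probes were lower, by -1.79 ± 0.14 and -1.14 ± 0.14 (limma, adjusted p = 1.58e-09 and 5.85e-07).

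Probes of the same gene disagreed in a few cases. For MRPL37, mitochondria-specific and in the large subunit, the probe A_23_P135474 was lower in the high than in the untranslated pool (-0.59 ± 0.13; limma, adjusted p = 8.26e-04) and A_33_P3297921 was at -0.11 (limma, adjusted p = 0.478). For MRPL43, A_33_P3263824 was lower in the high than in the low pool (-0.95 ± 0.14; limma, adjusted p = 1.17e-05) and the dim A_23_P346384 was at -0.60 (limma, adjusted p = 0.505). For MRPL30, A_33_P3272673 was above background in the low pool alone among control pools and was called lower in the high pool (limma, adjusted p = 0.0327), where its level gives a bound of at least 1.08-fold. The main MRPL30 probe, A_24_P302695, was at -0.15 (limma, adjusted p = 0.354).

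The amount of these messages in whole cells upon OS was examined next. In total RNA no member was called in either direction among 41 tested probes, at a background of 3.07% higher and 3.06% lower of 10630 mRNA probes. At an unadjusted p under 0.05, the member counts were 2 higher and 0 lower. Without moderated variances the count was 0 as well, and with only the arrays of the groups compared it was 2. Without the third OS low array, 0 members were higher and 1 lower, against 5.67% and 7.71%. Differences ranged from -0.66 to 1.44 and were mostly of 1 sign: 38 of 41 were positive, against 5067 of 10630 mRNA probes. Their median was 0.12, compared with -0.02 for all tested mRNA probes. The sign was not particular to the members. It was positive for 40 of 46 probes of nuclear-encoded respiratory chain subunits and 64 of 78 of cytosolic ribosomal proteins. The member median was 0.08, 0.10 and 0.18 within the 3 slides. The member called without that array was MRPL19 (first probe), which read 8.78, 8.74 and 8.72 in control and 8.04, 8.03 and 8.18 in OS total RNA. These groups did not overlap, and the difference was -0.66 ± 0.48 with all arrays (limma, adjusted p = 0.61; 0.0226 without that array).

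**Figure D2:**
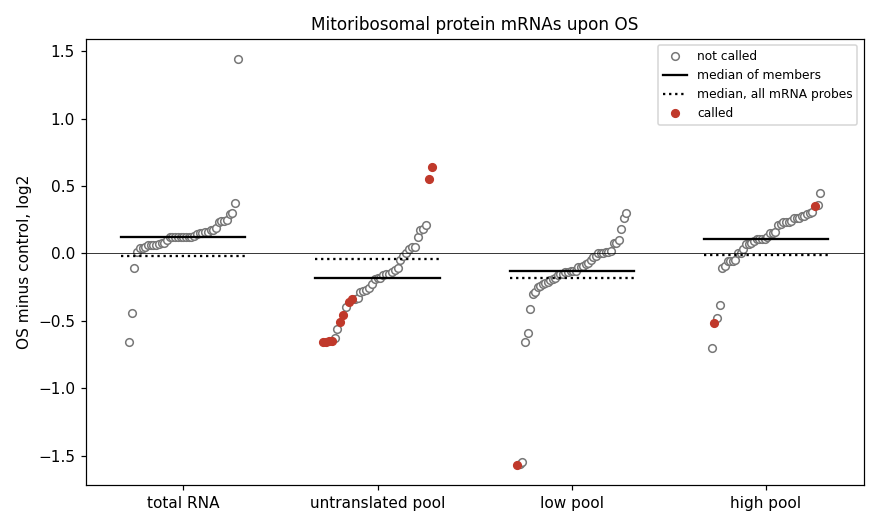
OS minus control difference (log2) of every tested member probe in total RNA and in the 3 pools, ordered within each column. Filled points were called, solid lines are member medians (0.12, -0.18, -0.13 and 0.11 from left to right) and dotted lines the medians of all tested mRNA probes. Most called members lie in the untranslated pool. The background of calls was also largest there, at 15.8% of tested mRNA probes higher and 15.7% lower.

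In the untranslated pool, 2 member probes were higher upon OS and 8 lower of 39 tested, against a background of 15.8% higher and 15.7% lower of 8025 mRNA probes. Once the third OS low array was left out, 2 were higher and 14 lower, against 22.3% and 25.5%. The median member difference was -0.18, and it was -0.20, -0.18 and -0.20 within the slides, while all tested mRNA probes had a median of -0.04. Of 18 tested probes for proteins with a bacterial counterpart, 7 were lower and 0 higher (11 and 0 without the array that stood apart), with a median of -0.34. Of 19 for mitochondria-specific proteins, 1 was lower and 2 were higher (2 and 2 without it), with a median of -0.14. The first and second control untranslated arrays carry the same number in their labels. With their mean taken as 1 array, 2 members were higher and 3 lower, and 5 members in all were called without the first of them.

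MRPL42, MRPS16, MRPS17 and MRPL13 fell by similar amounts in this pool. MRPL42 went from 12.40, 12.26 and 11.93 in control to 11.63, 11.52 and 11.46 upon OS, and every OS array was below every control array. The difference was -0.66 ± 0.15 (limma, adjusted p = 0.00367). MRPS16, a small-subunit protein with a bacterial counterpart, went from 11.56, 11.75 and 11.63 to 11.30, 10.83 and 10.83, likewise without overlap. It had a difference of -0.66 ± 0.16 (limma, adjusted p = 0.00529), and MRPS17 was at 13.15, 13.01 and 13.01 upon OS, lower by -0.65 ± 0.15 (limma, adjusted p = 0.00444). Both MRPL12 probes were lower as well, at -0.46 and -0.51 (limma, adjusted p = 0.0196 and 0.0341). MRPL13, MRPL18 and MRPL47 were the other members called lower, at -0.65, -0.34 and -0.36.

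The 2 probes that rose in the untranslated pool were both of MRPL37. They lie 5564 bases apart on chromosome 1 (chr1:54678253-54678312 and chr1:54683876-54683935, GRCh37, plus strand). A_33_P3297921 went from 12.37, 12.52 and 12.62 in control to 13.02, 13.11 and 13.31 upon OS. A_23_P135474 went from 13.27, 13.25 and 13.36 to 13.79, 13.79 and 13.93. Control and OS arrays did not overlap for either probe. The differences were 0.64 ± 0.13 and 0.55 ± 0.13 (limma, adjusted p = 0.00143 and 0.00461), and both were called under each of the 35 alternatives run.

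**Figure D3:**
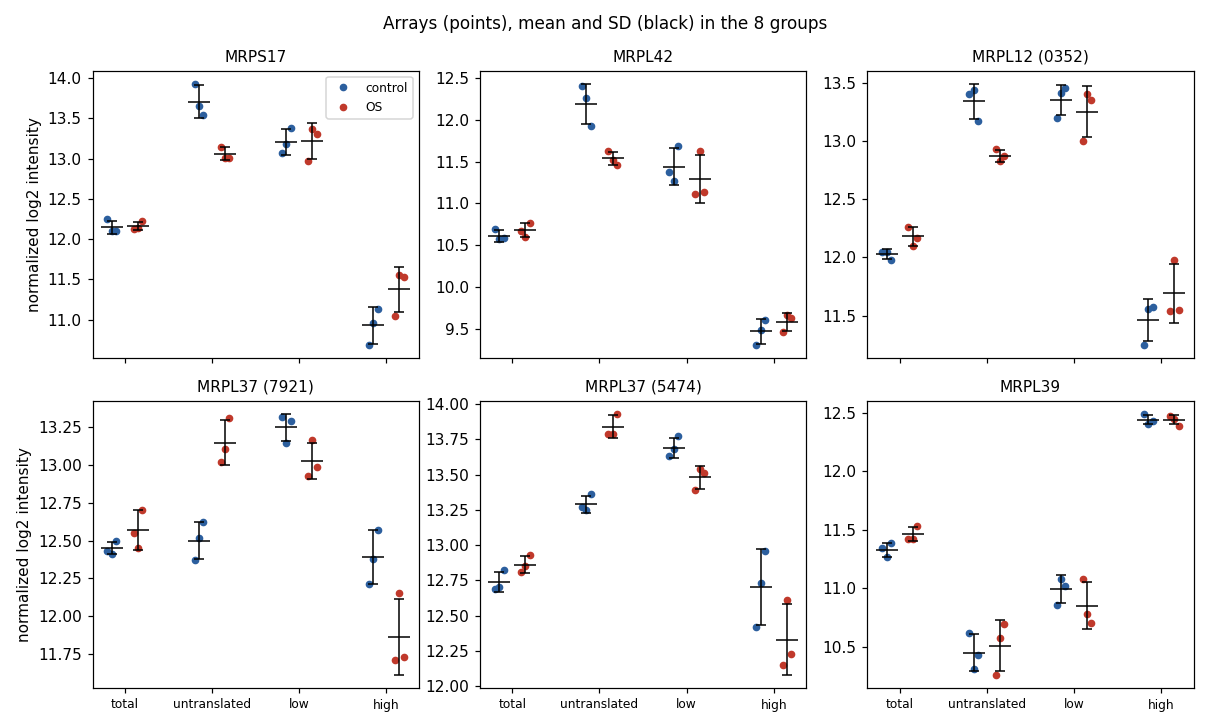
Normalized log2 intensity of 6 member probes in each of the 8 groups, control cells in blue and OS cells in red. Points are arrays, and black marks are the mean and SD of 3 arrays. MRPS17, MRPL42 and MRPL12 fell in the untranslated pool upon OS, both MRPL37 probes rose there, and MRPL39 stayed highest in the high pool. Each panel has its own vertical range, since levels are not comparable between probes.

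In the low pool 0 members were higher and 1 lower of 44 tested, against a background of 4.42% and 5.45% of 10806 mRNA probes. Without the third OS low array none was called (limma; 5.86% and 4.69% of 10833 mRNA probes), with 0 higher and 3 lower at an unadjusted p under 0.05. The 1 call was MRPL30 A_33_P3272673, which read 5.30, 5.43 and 5.52 in control and was not well above background on any OS array. Its OS arrays read 4.93, 3.65 and 2.95, the last on the array that stood apart. Within the slides the OS minus control difference was -0.37, -1.78 and -2.57. It was lower upon OS with all arrays, by an uncertain amount (limma, adjusted p = 0.0402; 0.149 without the array that stood apart). The median member difference was -0.13 (-0.08 without that array), compared with -0.18 (-0.03 without it) for all tested mRNA probes.

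In the high pool 1 member was higher and 1 lower of 42 tested, against a background of 3.57% and 2.83% of 10266 mRNA probes. Without the third OS low array 1 was higher and 2 lower, against 7.03% and 6.29%. The median member difference was 0.11, but it was 0.10, 0.39 and -0.10 within the 3 slides, so its sign was not the same on all of them. MRPL32, a large-subunit protein with a bacterial counterpart, rose from 11.60, 11.61 and 11.85 to 11.96, 12.09 and 12.06. Its difference was 0.35 ± 0.10 (limma, adjusted p = 0.0475), and it was called under 8 of the 35 alternatives. MRPL37 A_33_P3297921 fell from 12.21, 12.38 and 12.57 to 11.71, 12.15 and 11.73, by 0.52 ± 0.14 (limma, adjusted p = 0.0255). Its other probe was at -0.38 (limma, adjusted p = 0.135). The further member called without that array was the first MRPL19 probe (limma, adjusted p = 0.0191), at 9.05, 9.13 and 9.03 upon OS.

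The shift upon OS, that is the change of the high minus untranslated difference, joined both pools in 1 test. Of 42 tested member probes, 9 had a positive shift (toward the high pool) and 2 a negative one (away from it). The background was 8.04% and 8.03% of 10369 mRNA probes. A shift can come from a change in either pool, leaves out the low pool and does not count ribosomes. It is relative to the other mRNAs of each pool, so a movement shared by most mRNAs would not show. Without the third OS low array, 14 shifts were positive and 3 negative among those called, against 16.7% and 14.4%. The member median was 0.33, compared with 0.02 for all tested mRNA probes, and 31 of 42 differences were positive. Within the slides the median was 0.23, 0.51 and 0.09. The numbers of positive and negative called member shifts depended on the scaling, and the share of mRNA probes called under the other scalings was not worked out. The sign of the called MRPS17, MRPL13, MRPL42, MRPL12, MRPS36 and MRPL37 probes was the same under each of the 35 alternatives run. With normexp background correction and quantile normalization, 10 called member shifts were positive and 2 negative. With the deposited values, the called shifts were positive for 3 members and negative for 2, and under 75th percentile scaling for 2 and 3, or 13 and 3 under that scaling without the third OS low array. The member median was 0.31 in the deposited table and 0.42 under 75th percentile scaling, against -0.04 and 0.07 for all tested mRNA probes. With the mean of the first and second control untranslated arrays taken as 1 array, 2 members shifted toward and 2 away, and 4 in all were called without the first control untranslated, second OS untranslated, first control high or second OS high array.

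**Figure D4:**
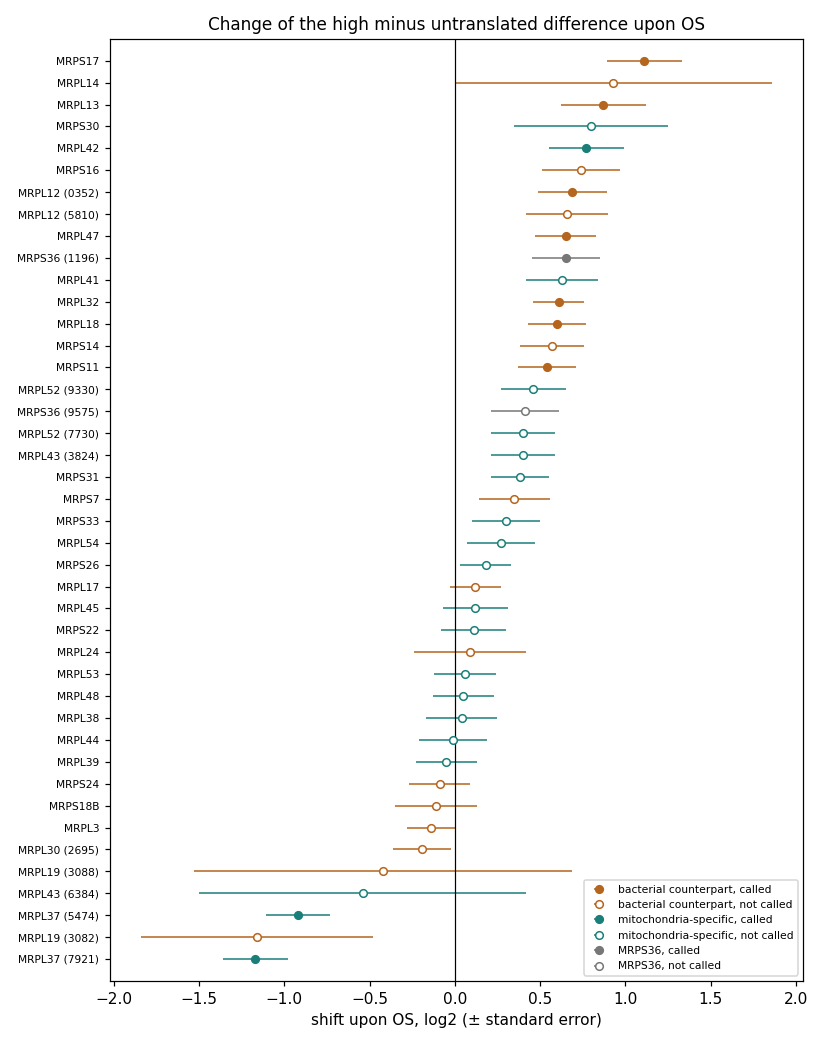
Shift upon OS (log2, with its limma standard error) of each tested member probe. Filled points were called, and colours separate proteins with a bacterial counterpart (brown), mitochondria-specific proteins (green) and MRPS36 (grey). MRPS17 lies at 1.11 and the called MRPL37 probes at -0.92 and -1.17.

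Among probes for proteins with a bacterial counterpart, 7 of 20 had a positive called shift and 0 a negative one (10 and 1 without the third OS low array), with a median of 0.56. Among those for mitochondria-specific proteins, 1 of 20 had a positive and 2 a negative called shift (3 and 2 without it), with a median of 0.15. The difference between these classes was not tested. MRPS17 had the largest positive shift of the called members, 1.11 ± 0.22 (limma, adjusted p = 0.00424), and it was 0.88, 1.12 and 1.31 within the slides. MRPL13, a large-subunit protein, read 13.97, 13.81 and 13.32 in control and 13.19, 12.94 and 13.03 in OS untranslated arrays, and 13.04, 13.28 and 13.71 in control and 13.30, 13.83 and 13.58 in OS high arrays. Its high arrays overlapped and its untranslated arrays did not. It shifted by 0.87 ± 0.25, MRPL42 by 0.77 ± 0.22 and MRPL32 by 0.61 ± 0.15 (limma, adjusted p = 0.032, 0.0331 and 0.0109). The others called toward the high pool were MRPL12, MRPL18, MRPL47, MRPS11 and MRPS36, from 0.54 to 0.69. Of the 35 alternatives, MRPL42 was called under 24, MRPL12 under 23, MRPL13 under 22 and MRPS36 under 8. For MRPL12 the second probe was at 0.66 ± 0.24 (limma, adjusted p = 0.0996), and for MRPS36 the second was at 0.41 ± 0.20 (limma, adjusted p = 0.243), so calls differed between probes of these genes where values were close.

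MRPL37 was the only gene called away from the high pool with all arrays. The shifts of its probes were -1.17 ± 0.19 and -0.92 ± 0.19 (limma, adjusted p = 9.2e-04 and 0.00489), and these were negative on all 3 slides, at -1.01, -0.72 and -1.78 for the first. As in the untranslated pool, both were called under each of the 35 alternatives, and so was MRPS17. The first MRPL19 probe was at -1.16 ± 0.68 (limma, adjusted p = 0.376) and was called away from the high pool without the third OS low array (limma, adjusted p = 0.00498). This probe was well above background on only 1 of 3 control and 2 of 3 OS untranslated arrays, so the size of its shift is uncertain. MRPL3, MRPL24, MRPL44, MRPL45, MRPS18B and MRPS22 had shifts between -0.14 and 0.12, none of them called. MRPS30 was at 0.80 ± 0.45 (limma, adjusted p = 0.36; 0.00297 without that array).

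A single array decided the values of MRPL14, a large-subunit protein named here after its values were seen. It read 7.65 on the first control total RNA array, but 11.71 and 11.76 on the others and 11.77, 11.82 and 11.87 upon OS. With all arrays its total RNA difference was 1.44 ± 0.65 and without that array 0.08 ± 0.14. Its untranslated difference upon OS was -0.63 and its shift 0.93 in both fits. Without that array these passed the threshold (limma, adjusted p = 7.79e-04 and 0.00324), whereas with all arrays they did not (limma, adjusted p = 0.62 and 0.696).

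Other genes of mitochondrial gene expression were read beside the members, at the same background of 8.04% positive and 8.03% negative called shifts (16.7% and 14.4% without the third OS low array). Of the mitoribosomal proteins with other symbols, 2 of 6 tested probes had a positive called shift and 0 a negative one (3 and 0 without that array), with a median of 0.37. These were PTCD3, a pentatricopeptide protein of the small subunit, at 1.59 ± 0.29, and CHCHD1, a small-subunit protein, at 0.76 ± 0.17 (limma, adjusted p = 0.00185 and 0.00853). Of the genes for mitoribosome assembly and rRNA modification, 1 of 12 had a positive called shift and 0 a negative one, or 4 and 0 without that array. With all arrays it was C7orf30 (now MALSU1), an assembly factor of the large subunit, at 0.52 ± 0.16 (limma, adjusted p = 0.0445). None of the 6 probes for translation factors, 7 for mitochondrial aminoacyl-tRNA synthetases, 8 for transcription and mRNA stability or 6 for regulators of mitochondrial biogenesis was called in the shift (limma), with medians of -0.16, -0.13, 0.15 and 0.15 and 4 probes in all at an unadjusted p under 0.05. Without that array there were calls for 0 translation factors, 1 aminoacyl-tRNA synthetase (positive), 1 positive and 1 negative among transcription and mRNA stability and 1 negative among the regulators.

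In the untranslated pool these lists had called probes in both directions upon OS, at a background of 15.8% higher and 15.7% lower. TUFM, the mitochondrial elongation factor Tu, rose by 0.82 ± 0.12 upon OS, IARS2, the isoleucyl-tRNA synthetase, by 1.26 ± 0.12 and LRPPRC, which stabilizes mitochondrial mRNAs, by 1.48 ± 0.18 (limma, adjusted p = 5.26e-05, 1.23e-06 and 1.22e-05). Lower were PTCD3 at -0.99 ± 0.20, TFAM, the transcription and packaging factor of mitochondrial DNA, at -0.68 ± 0.18, RNMTL1, a methyltransferase of mitochondrial rRNA, at -0.64 ± 0.20 and C7orf30 at -0.58 ± 0.10 (limma, adjusted p = 0.00139, 0.00859, 0.0238 and 4.68e-04). CHCHD1, at -0.50 ± 0.11, and NARS2, the asparaginyl-tRNA synthetase, at -0.42 ± 0.09, were lower as well (limma, adjusted p = 0.00374 and 0.00319). By list, the calls were 0 higher and 2 lower of 6 mitoribosomal proteins with other symbols, 1 and 0 of 6 translation factors, 0 and 2 of 11 assembly genes, 1 and 1 of 6 synthetases, 1 and 1 of 5 for transcription and mRNA stability and 0 and 0 of 4 regulators. Without the third OS low array, the translation factors had 2 higher and 2 lower and the assembly genes 1 higher and 4 lower, while the other lists had the counts given.

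A pair of families with related roles bracketed the members in the shift. Nuclear-encoded respiratory chain subunits had a median of 0.53, with 17 of 45 probes toward the high pool and 1 away (23 and 1 without the third OS low array). Cytosolic ribosomal proteins had a median of -0.33, with 2 toward and 26 away of 76 (2 and 31 without it). The members lay between them at 0.33, and these differences between families were not tested.

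**Figure D5:**
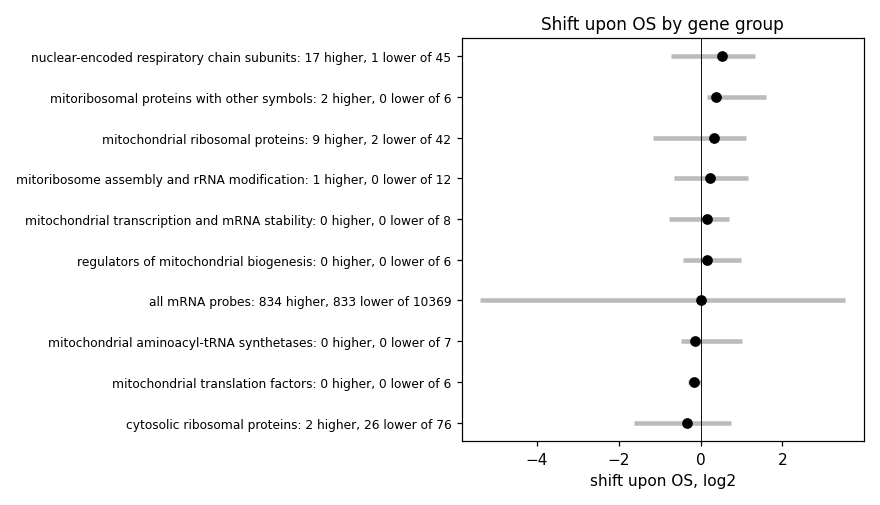
Shift upon OS (log2) by gene group. Points are medians and bars the range over the tested probes of a group, and the label of each group gives the positive (higher) and negative (lower) calls. The median of the mitochondrial ribosomal proteins (0.33) lies between those of respiratory chain subunits (0.53) and cytosolic ribosomal proteins (-0.33).

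Some members gave no result. The probes of MRPL23-AS1 and MRPS27 and the MRPL30 probe A_33_P3272668 were tested in no comparison. MRPS27 and this MRPL30 probe were well above background on 0 arrays, and MRPL23-AS1 on 2. MRPS18C was tested in the low pool alone, where it was at -0.66 ± 0.46 upon OS (limma, adjusted p = 0.3). Its OS low arrays read 5.21, 5.13 and 3.11, the last on the array that stood apart, and without that array the difference was 0.03. The remaining dim probes of MRPL19, MRPL30 and MRPL43 were tested in part of the comparisons.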

How the data were processed

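Arrays held 1-colour intensities from a custom Agilent design (GRCh37), deposited by the authors as Feature Extraction 10.7.3.1 output, and a table of log2 values that the authors had quantile normalized. That table differed by at most 0.0014 from a quantile normalization over all probes together. Anomalous replicates were dropped by the authors, who do not name them. Here the deposited processed signal was log2 transformed and quantile normalized within lncRNA and within mRNA probes. Probes with an outlier mark (178) were dropped, and none was a member. Tested probes were well above background throughout 1 or more of the groups compared. Limma 3.58.1 (R 4.3.3) was fitted to all 8 groups with eBayes, and p-values were adjusted by Benjamini-Hochberg over all tested lncRNA and mRNA probes, with calls at 0.05. The procedure was carried out on separate RNA preparations, and 3 arrays per group limit the precision.

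The fit was tested on simulated data: for the shift, 27% of 200 probes given a log2 change of 1.5 passed the threshold (20276 probes). The 200 were drawn from all tested lncRNA and mRNA probes, so this share does not describe the members. Named with values were, per comparison, the 3 most positive and 3 most negative called members, genes whose probes disagreed, members with a noted place in the ribosome and up to 3 called genes per further list. Members and lists were chosen with earlier results of these data known. From the assembly list C4orf46 was removed as entered in error. Samples were not paired by replicate number: deviations of arrays with the same number correlated between -0.22 and 0.37 (median 0.08, 84 pairs), and the labels do not say what a number shares. Promoter sequences are from RefSeq (GRCh38.p14). MRPS36 has the current symbol KGD4 there.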

Additional observations from a re-analysis of the deposited data

Results flagged for a closer look

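For 11 of 42 tested member probes the OS effect differed between the high and the untranslated pool, by limma's test of the shift. The background was 8.04% positive and 8.03% negative of 10369 tested mRNA probes. Toward the high pool these were MRPS17 (1.11), MRPL13 (0.87), MRPL42 (0.77), MRPL12 (0.69), MRPL47 (0.65), MRPS36 (0.65), MRPL32 (0.61), MRPL18 (0.60) and MRPS11 (0.54), all on the log2 scale. Away from it were the MRPL37 probes, at -1.17 and -0.92. Each had the same sign on all 3 slides, which hold the arrays that gave the calls and are no separate check.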

How the results depend on the processing

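The 2 comparisons of control pools had 31 to 35 called members when any 1 array was left out, whereas the OS comparisons rested on few calls. When arrays were left out in turn, the called members numbered 0 to 1 in total RNA, 5 to 16 in the untranslated pool, 0 to 4 upon OS in the low pool, 0 to 3 likewise in the high pool, 32 to 35 for high against untranslated, 31 to 35 for high against low and 4 to 17 for the shift. The highest counts came without OS low pool replicate 3 (35 also without OS low pool replicate 1), except that 4 in the low pool came without OS low pool replicate 1. The count of 5 came without control untranslated replicate 1, and 0 in the high pool without control high replicate 2 or OS high replicate 3. Total RNA, with 0 calls, gave 1 under 75th percentile scaling, with and without OS low pool replicate 3, and 2 with only the arrays of the groups compared. The untranslated pool, with 10, gave 5 with no filter and 5 with control untranslated replicates 1 and 2 as 1 array. The low pool, with 1, gave 3 in the deposited table, 3 with normexp, 2 with no moderation and 0 with no filter, the slide block or only the groups compared. The high pool, with 2, gave 1 in the deposited table, under 75th percentile scaling, with normexp or with only the groups compared, and 0 with no filter. The shift, with 11, gave 5 in the deposited table, 5 under 75th percentile scaling, 3 with no filter, 7 with only the groups compared and 4 with those control untranslated arrays as 1. With the replicate number as a block the counts were 0, 10, 0, 1, 34, 33 and 9 in the order above, so that the block ended the only low pool call and 1 high pool call. By the methods, the gradient was run 3 times and pools of 1 run share a preparation, but the labels do not say that a number marks a run, and outside the control untranslated arrays the number coincides with the slide, so run and slide cannot be told apart. The cause of these changes was not tested.

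Of the single values, 45 passed the threshold only under the alternative and 144 lost it. At the 2 decimals printed, 34 of 3844 had the opposite sign to the reported value, and in 39 more 1 of the pair rounded to 0.00. By unrounded values, 18 turned in sign and were also called in a fit or moved by more than 1 standard error. These follow. In the deposited table MRPL37 A_33_P3297921 was at 0.35 for high against untranslated and MRPL30 A_24_P302695 at 0.04 for high against low. Under 75th percentile scaling the low pool differences upon OS were -0.29 for MRPL24, 0.00 for MRPS30, -0.19 for MRPS36, -0.06 for MRPS22, -0.11 for MRPL44 and 0.33 for MRPS18C, and MRPL24 was at -0.28 for high against low. Under that scaling without OS low pool replicate 3 they were 0.04 for MRPS30, -0.03 for MRPS22, -0.13 for MRPL44 and 0.23 for MRPS18C, with MRPL24 again at -0.28. With arrays left out in turn they ranged from -0.95 to 0.04 for MRPS30, -0.07 to 0.16 for MRPL44 and -1.01 to 0.03 for MRPS18C, each changing sign without OS low pool replicate 3. In the high pool MRPL24 ranged from -0.15 (without control high replicate 1) to 0.26. Dim probes limit MRPL19, MRPL30, MRPL43 and MRPS18C, whose signal was near background in part of the groups.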
